A study of Mus musculus with 14 samples.

Results

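Peaks of RNF2 and BAP1 were described at 10 imprinted genes of mouse embryonic stem (ES) cells: Igf2, Igf2r, Grb10, Phlda2, Dlk1, Plagl1, Mest, Ndn, Snrpn and Peg3. They are 10 of the 21779 protein-coding genes of the annotation and were picked by name as known imprinted genes, with earlier results of these data known. Every listed peak that overlapped a gene's span or the 5 kb on either side by at least 1 bp was counted. The peaks come from chromatin immunoprecipitation with sequencing (ChIP-seq), in which DNA bound by a protein is enriched with an antibody and stretches with more reads than the matched input are listed. RNF2 ChIP had been made in 2 BAP1 knockout libraries, 1 RNF2 knockout library and 2 wild-type libraries. For BAP1 ChIP there was 1 library of Bap1C91A/- cells, called C91A here, which carry BAP1 with its catalytic cysteine exchanged, and 1 of BAP1 knockout cells. Each of the 7 ChIP libraries had its own input.

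All cells, controls included, were C57BL/6 ES cells with the age label E3.5 to E4.5 days, and all had been kept for 4 days in 100 nM 4-OHT (4-hydroxytamoxifen) and 10 µM of the caspase inhibitor emricasan. The C91A cells alone among those used here are stated to have been crosslinked with 2 mM disuccinimidyl glutarate for 30 min beforehand, so genotype and crosslinking cannot be told apart in the BAP1 comparison. Nothing in the labels says that libraries of a genotype came from separate cultures or clones, and any spread given may be technical. Peak lists hold no expression values and no sequence variants, so neither the ES cell identity nor the parental allele that carried a peak could be checked.

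An imprinted gene is expressed mainly from the allele of one parent, because a mark set in the egg or the sperm, usually DNA methylation at a control region, is kept on one copy. Several of these genes act against each other on growth, with paternally expressed genes such as Igf2 promoting it and maternally expressed genes such as Igf2r, Grb10 and Phlda2 restraining it. RNF2 (RING1B) is the catalytic subunit of Polycomb repressive complex 1, which adds ubiquitin to histone H2A and gathers at CG-rich promoters that lack DNA methylation. BAP1 is the deubiquitinase that removes this ubiquitin.

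The start regions of 7 genes are shown because they span the range seen here, which ran from a broad RNF2 peak over the start in every BAP1 knockout and wild-type library to no peak near the start in any. Each is the 300-base window from 250 bases before to 50 bases after an annotated start, from RefSeq (build GRCm38.p6), written 5′ to 3′ on the gene's strand, with every CG dinucleotide in capitals. The windows of Grb10 (chr11:12037371-12037670, minus strand), Igf2r (chr17:12769657-12769956, minus strand), Phlda2 (chr7:143502475-143502774, minus strand) and Ndn (chr7:62348027-62348326, plus strand) come first. A peak covered these 4 starts in all 4 RNF2 libraries of BAP1 knockout and wild-type cells. They hold 45, 34, 26 and 11 CG.
Grb10: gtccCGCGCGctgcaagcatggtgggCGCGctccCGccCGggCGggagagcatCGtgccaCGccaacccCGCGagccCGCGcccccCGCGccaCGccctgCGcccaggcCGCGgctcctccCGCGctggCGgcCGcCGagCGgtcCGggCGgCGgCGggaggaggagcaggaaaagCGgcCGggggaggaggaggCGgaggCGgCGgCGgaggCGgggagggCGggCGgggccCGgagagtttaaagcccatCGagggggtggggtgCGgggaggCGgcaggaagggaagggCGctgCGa
Igf2r: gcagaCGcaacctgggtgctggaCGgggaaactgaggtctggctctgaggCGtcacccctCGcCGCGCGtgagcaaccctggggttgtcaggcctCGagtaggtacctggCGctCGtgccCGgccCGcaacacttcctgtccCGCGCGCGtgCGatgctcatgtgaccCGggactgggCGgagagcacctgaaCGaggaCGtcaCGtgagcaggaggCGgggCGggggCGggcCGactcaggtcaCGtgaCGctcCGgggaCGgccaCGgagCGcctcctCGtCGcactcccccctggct
Phlda2: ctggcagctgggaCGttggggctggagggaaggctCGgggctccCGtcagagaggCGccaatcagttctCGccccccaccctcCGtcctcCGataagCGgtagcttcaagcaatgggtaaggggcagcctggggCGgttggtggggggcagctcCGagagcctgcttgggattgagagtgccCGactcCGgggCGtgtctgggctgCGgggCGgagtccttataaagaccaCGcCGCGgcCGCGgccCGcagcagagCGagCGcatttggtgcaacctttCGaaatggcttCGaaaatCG
Ndn: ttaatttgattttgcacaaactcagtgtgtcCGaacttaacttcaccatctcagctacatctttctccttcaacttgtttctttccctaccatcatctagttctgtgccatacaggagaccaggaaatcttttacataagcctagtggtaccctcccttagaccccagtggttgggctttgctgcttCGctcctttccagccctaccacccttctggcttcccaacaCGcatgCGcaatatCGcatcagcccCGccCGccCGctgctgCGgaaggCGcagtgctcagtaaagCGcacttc

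Mest is shown at its second annotated start (chr6:30737800-30738099, plus strand, 17 CG), which lay in a peak in 2 of the 4 libraries. Peg3 (chr7:6730370-6730669, minus strand, 13 CG) and Snrpn (chr7:60005150-60005449, minus strand, 7 CG) had no peak over the start in any of the 4.
Mest: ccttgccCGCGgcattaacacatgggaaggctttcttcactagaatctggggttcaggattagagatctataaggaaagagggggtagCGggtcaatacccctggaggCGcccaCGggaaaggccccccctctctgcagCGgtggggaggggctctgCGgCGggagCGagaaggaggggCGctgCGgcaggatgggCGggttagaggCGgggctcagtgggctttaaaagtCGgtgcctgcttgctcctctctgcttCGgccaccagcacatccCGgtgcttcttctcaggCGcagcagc
Peg3: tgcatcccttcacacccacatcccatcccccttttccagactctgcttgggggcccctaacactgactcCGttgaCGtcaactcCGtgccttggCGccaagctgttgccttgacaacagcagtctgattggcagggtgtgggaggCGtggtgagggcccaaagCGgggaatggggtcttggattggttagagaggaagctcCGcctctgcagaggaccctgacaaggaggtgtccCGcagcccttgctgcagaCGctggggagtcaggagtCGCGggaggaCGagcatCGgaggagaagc
Snrpn: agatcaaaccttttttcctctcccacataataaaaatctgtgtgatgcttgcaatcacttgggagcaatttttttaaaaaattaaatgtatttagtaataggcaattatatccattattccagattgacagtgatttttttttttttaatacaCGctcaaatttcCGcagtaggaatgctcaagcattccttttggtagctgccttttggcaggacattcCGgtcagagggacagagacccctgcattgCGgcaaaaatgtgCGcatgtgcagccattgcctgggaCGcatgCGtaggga

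RNF2 peaks were present at most of the 10 genes in both genotypes and at none in RNF2 knockout cells. The BAP1 knockout libraries had a peak at 8 and 10 of the 10 genes, the RNF2 knockout library at 0, and the wild-type libraries at 7 and 9. Over all 21779 protein-coding genes, the same rule found a peak at 29.6% and 66.6% in the BAP1 knockout libraries, 0% in the RNF2 knockout library, and 14.5% and 58.8% in the wild-type libraries. Igf2, Igf2r, Grb10, Phlda2, Dlk1, Plagl1 and Ndn had a peak in all 4 libraries, which makes 7 of 10 genes, against 14.2% of all genes. Mest had none in the first wild-type library, Snrpn in the first library of each genotype, and Peg3 in all but the second BAP1 knockout library. The median gene span was 21.3 kb for the 10 genes and 17.2 kb for all genes. Spans of the 10 genes varied widely, from 1.6 kb at Phlda2 to 468 kb at Snrpn. The part of span length in these shares was not tested.

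**Figure D1:**
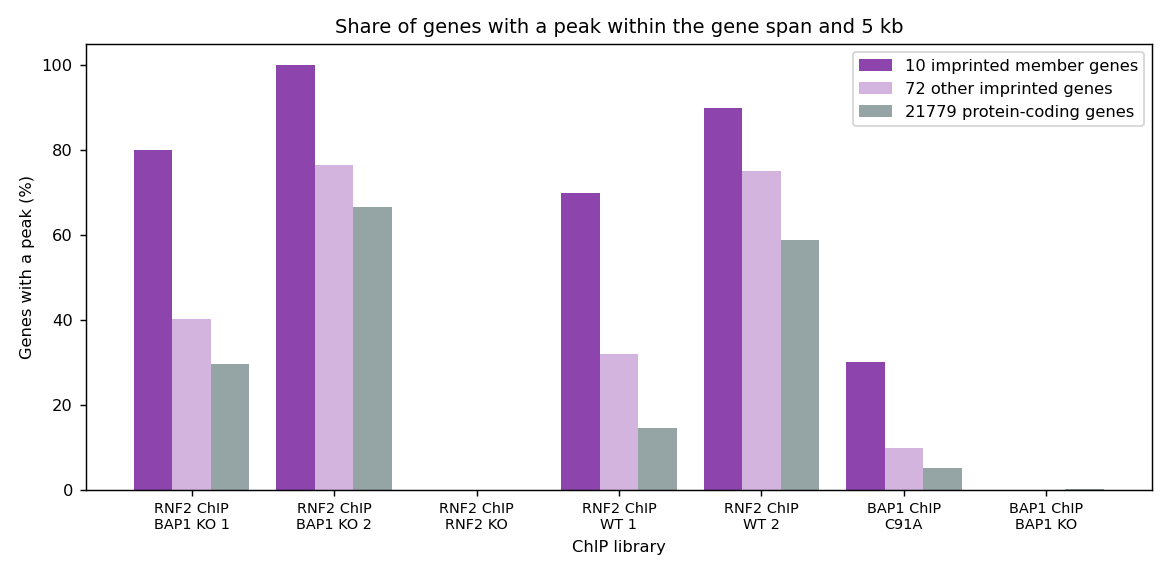
Share of genes (%) with a peak within the gene span and 5 kb on each side, by ChIP library, for the 10 imprinted genes, 72 other imprinted genes and all 21779 protein-coding genes. The 72 include neighbours in imprinted domains. Bars of the 10 genes stand above those of all genes in each BAP1 knockout and wild-type RNF2 library, and no bar rises from 0 in the RNF2 knockout library.

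The first and second RNF2 libraries of each genotype differed in depth and in how peaks were called, so values are given per library. The BAP1 knockout libraries held 54.1 and 139 M tags and listed 7946 and 39872 peaks on the main chromosomes, against 58.4 and 149 M tags and 4038 and 28770 peaks in the wild-type libraries. The RNF2 knockout library listed 0 peaks at 119 M tags. Both second libraries, like that of the RNF2 knockout, had been called with a later version of the peak caller and a fixed fragment length of 100 bp, and the second libraries' peaks were shorter, with medians of 327 bp in BAP1 knockout and 280 bp in wild type, against 1082 and 876 bp in the first libraries. When each list was limited to its 4038 highest peaks by fold enrichment, the BAP1 knockout libraries had a peak at 8 and 8 of the 10 genes and the wild-type libraries at 7 and 8. Then 0 of the 10 were gained across the 4 lists, against 1.80% of all genes, and 0 were lost, against 0.606%. All genes with a peak then stood at 17.2% and 18.6% in BAP1 knockout, and at 14.5% and 17.5% in wild type.

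Igf2 encodes a fetal growth factor and is expressed from the paternal copy in most tissues. It carried the longest stretch of RNF2 of the 10 genes in each of the 4 libraries. Peaks covered 7.58 and 10.8 kb of its window in the BAP1 knockout libraries, and 7.06 and 13.1 kb in the wild-type libraries. Most of this was a single domain over the middle of the gene (chr7:142650768-142666816, minus strand, build GRCm38 as for all positions here), 7582 and 9599 bp long in BAP1 knockout and 7060 and 10327 bp in wild type. It covered 2 and 3 of the 4 annotated Igf2 starts in the BAP1 knockout libraries and 2 and 4 in the wild-type libraries, and it also lay in Igf2os, a noncoding gene on the opposite strand. The summits of the 4 domains lay between 368 and 630 bp downstream of the start at position 142661271.

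The Igf2 domain was among the highest peaks of the first BAP1 knockout list and stood high in the others. Fold enrichment, the peak caller's own estimate of ChIP over local background for one peak, is the authors' value and is used only within a list. For the Igf2 domain this was 33.4 in the first BAP1 knockout list, where it stood at place 17 of 7946 (the top 0.214%), and 19.4 in the second (3.79%). In the wild-type lists it was 11.1 (8.02%) and 11.4 (9.42%). The lists differ in length, so these places do not measure a change.

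Igf2r (chr17:12682406-12769706, minus strand) encodes the receptor that takes up IGF2 for breakdown and is expressed from the maternal copy in most mouse tissues. RNF2 lay at a pair of sites, one over the Igf2r start and one about 27 kb into the gene. Peaks covered 2.39 and 4.12 kb in the BAP1 knockout libraries and 0.96 and 3.67 kb in the wild-type libraries. The peak over the start was 1290 and 2230 bp long in BAP1 knockout, with fold enrichments of 6.27 and 16.4, and 960 and 1913 bp long in wild type, with 6.88 and 14.2. The inner site lies at the start of Airn, the antisense noncoding RNA whose transcription silences Igf2r on the paternal copy. It consisted of 2 short peaks in the first BAP1 knockout library (637 and 467 bp, fold enrichments 2.65 and 3.19) and of 1 peak in the second (1889 bp, 11.6). In wild type it was absent from the first list and was 1 peak in the second (1660 bp, 9.68). The annotated Airn start itself was inside a peak in the second library of each genotype. It lay 172 bp from the nearest peak in the first BAP1 knockout library and 28 kb away in the first wild-type library. With 3 CG in its window, it was poor in CG, whereas the Igf2r start shown above has 34.

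Grb10 (chr11:11930499-12037428, minus strand) encodes an adaptor that dampens insulin and IGF receptor signalling, and in mice it is maternally expressed in most tissues and paternally expressed in neurons from separate promoters. RNF2 was found at the upstream start and at a site downstream of the second start in all 4 libraries. The highest peak was near the upstream start in each. Peaks covered 3.81 and 8.45 kb in BAP1 knockout and 3.47 and 10.8 kb in wild type. The upstream start, at position 12037420 on chromosome 11, has 45 CG in its window, the highest count of the 19 member starts. The highest peak there reached a fold enrichment of 12.0 and 23.9 in BAP1 knockout, and of 11 and 12.7 in wild type. In the first BAP1 knockout library that peak began 468 bp downstream of the start, and the peak over the start had 11.4. The value of 23.9 was the top of its list, where 89 peaks were tied.

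The second Grb10 start, at position 12027971, had a lower site whose summit was 1.49 to 1.80 kb downstream of it. That peak was 0.323 and 2.39 kb long in BAP1 knockout, with fold enrichments of 2.49 and 7.32, and 0.803 and 2.62 kb long in wild type, with 2.64 and 6.31. A peak over the start itself was listed in the second wild-type library alone, 410 bp long with a fold enrichment of 4.12. In that library 10 short peaks of 100 to 187 bp also ran between the sites, as the map of peak positions shows.

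**Figure D2:**
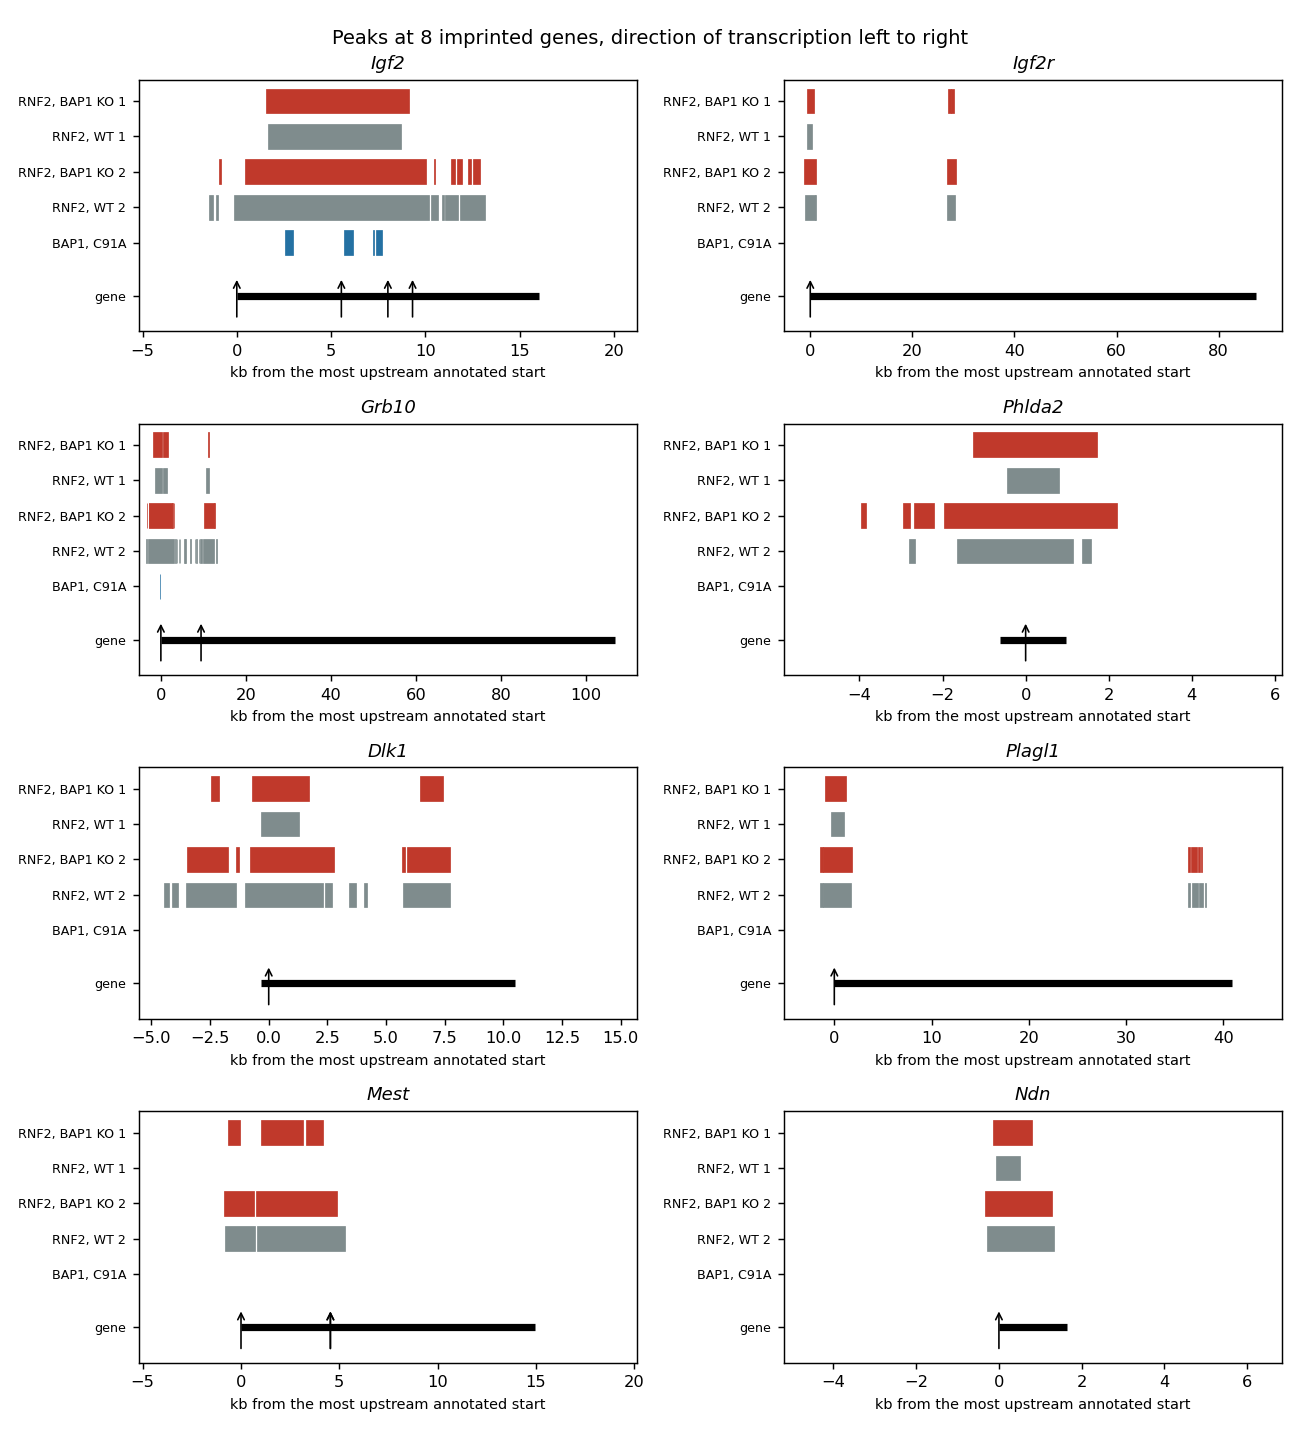
Peak positions at 8 of the genes, in kb from the most upstream annotated start and with transcription running left to right, in each RNF2 library of BAP1 knockout and wild-type cells and in the BAP1 library of C91A cells; arrows mark annotated starts and the bar the gene span. Peaks lie over starts at 7 of these genes in all 4 RNF2 libraries, Mest is empty in the first wild-type library, and Igf2r and Plagl1 have a second site far inside the gene.

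Phlda2 (chr7:143501545-143503145, minus strand) encodes a small protein that restrains growth of the placenta and is expressed from the maternal copy. A single main peak covered the whole gene in both BAP1 knockout libraries and the second wild-type library, and in each pair it was longer in BAP1 knockout. Peaks covered 2.98 and 4.94 kb in BAP1 knockout and 1.25 and 3.16 kb in wild type. The highest fold enrichment was 18.2 (in the top 7.17% of its list) and 23.5 (0.431%) in BAP1 knockout, and 2.7 (91.8%) and 18.5 (2.90%) in wild type. The first wild-type library thus listed Phlda2 near the bottom, at place 3705 of 4038, while the other 3 libraries listed it near the top. The same peak also fell in the window of Slc22a18, the neighbouring imprinted gene.

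Dlk1 (chr12:109452485-109463336, plus strand) encodes a membrane protein related to Notch ligands and is expressed from the paternal copy. The highest RNF2 peak lay at the start in each of the 4 libraries, and the next highest lay on either side of it in the 3 libraries with more than 1 peak. Peaks covered 3.77 and 7.36 kb in BAP1 knockout and 1.61 and 8.68 kb in wild type. The start peak was among the highest of its list in the BAP1 knockout libraries, with fold enrichments of 23.8 (2.49%) and 23.9 (tied for the top). In wild type it had 7.13 (19.5%) and 19.7 (1.85%). Some 7 kb downstream lay one such site, with fold enrichments of 3.74 and 12.7 in BAP1 knockout, and in wild type no peak and 10.2. The one upstream of the start had 2.64 and 7.36 in BAP1 knockout, and in wild type no peak and 10.2. The second wild-type library listed 8 peaks in all, the shorter ones with fold enrichments of 2.78 to 4.68. The Dlk1 start window has 9 CG, close to the median of 7 over all 32817 start windows.

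Plagl1 (chr10:13090832-13131694, plus strand) encodes a zinc-finger transcription factor and is expressed from the paternal copy. Its start, with 26 CG, had a peak in all 4 libraries, with the summit within 180 bp of it. The noncoding gene Hymai starts a few bases away, at position 13090845, under the same peak. Peaks covered 2.17 and 4.43 kb in BAP1 knockout and 1.34 and 4.49 kb in wild type. Fold enrichment at the start was 10.6 and 20.8 in BAP1 knockout and 6.76 and 12.2 in wild type. Near the other end of the gene, about 37 kb downstream, the second library of each genotype listed a group of 4 short peaks, with a highest fold enrichment of 5.13 in BAP1 knockout and 3.86 in wild type. Neither first library listed a peak there.

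Mest (chr6:30733506-30748466, plus strand) encodes an enzyme of the hydrolase fold and is expressed from the paternal copy. Its highest RNF2 peak had its summit between the starts, a lower one lay at the first start, and the first wild-type library had neither. Peaks covered 3.63 and 5.67 kb in BAP1 knockout and 0 and 5.99 kb in wild type. The highest summit was 2.21 to 2.26 kb downstream of the first start in the 3 libraries that had it, with fold enrichments of 8.73 and 16.9 in BAP1 knockout and 13.2 in the second wild-type library. The lower peak had fold enrichments of 4.58 and 9.52 in BAP1 knockout and 7.9 in the second wild-type library. All 3 annotated starts were inside a peak in the second libraries of both genotypes. In the first BAP1 knockout library the peaks ended 61 bp short of the first start and 381 bp short of the second. The nearest peak in the first wild-type library was 39.6 kb away.

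Ndn, Snrpn and Peg3 had the shortest covered lengths in both BAP1 knockout libraries and the second wild-type library, while in the first wild-type library Mest also stood at 0. Ndn (chr7:62348277-62349928, plus strand) encodes necdin, a MAGE-family protein of neurons, and Snrpn a protein of small nuclear ribonucleoproteins. Both are paternally expressed genes of the region that corresponds to the human Prader-Willi locus. At Ndn a single peak over the start covered 0.955 and 1.62 kb in BAP1 knockout and 0.582 and 1.62 kb in wild type. Its fold enrichment was 4.92 (48.9%) and 16.2 (6.98%) in BAP1 knockout and 3.98 (51.7%) and 15.6 (5.37%) in wild type, so it was mid-list in the first library of each genotype and high in the second.

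Snrpn had peaks inside its long span but none at a start. Peaks covered 0 and 1.38 kb in BAP1 knockout and 0 and 0.706 kb in wild type, and the highest fold enrichment was 5.41 in the second BAP1 knockout library and 6.9 in the second wild-type library. These highest peaks had their summits upstream, at −15.3 kb from the start at position 60140225, at the pseudogene Gm7367, within the noncoding host gene Snhg14. The start shown above, which Snrpn shares with Snurf and which belongs to the maternally methylated control region, was 150 kb from the nearest peak in both second libraries. The shortest distance from an annotated Snrpn start to a peak in any of the 4 libraries was 14.8 kb. Because the span is long (chr7:59982495-60450177), counting Snrpn as a gene with a peak rests on these inner peaks alone.

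Peg3 (chr7:6703892-6730462, minus strand) encodes a zinc-finger protein expressed from the paternal copy. Its window held a single peak, in the second BAP1 knockout library, 367 bp long and enriched 3.33-fold over background, and the other BAP1 knockout library and both wild-type libraries had none. The peak ended 511 bp upstream of the Peg3 start and lay within Usp29, the imprinted gene that starts back to back with Peg3. It stood in the middle of its list, at 50.7%.

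**Figure D3:**
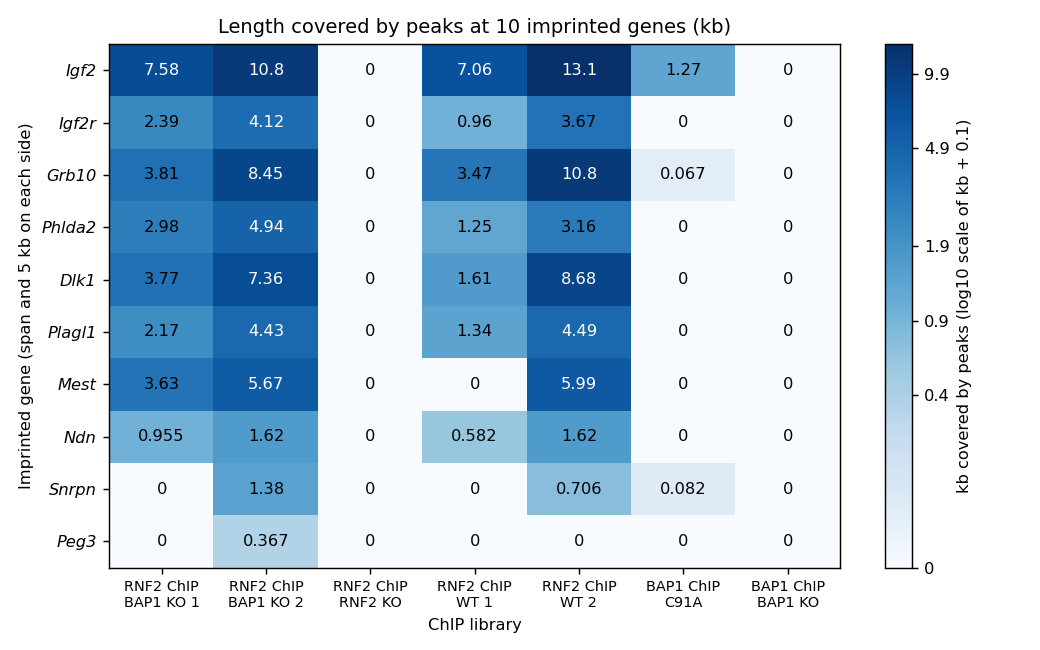
Length covered by peaks (kb) in the window of each of the 10 genes, by ChIP library; colour follows a log10 scale and each cell prints its value. Igf2 is the longest in each BAP1 knockout and wild-type RNF2 library, Snrpn and Peg3 are the shortest (with Mest also at 0 in the first wild-type library), and the RNF2 knockout library and the BAP1 ChIP of BAP1 knockout cells are at 0 throughout.

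Among the 19 annotated starts of the 10 genes, all with 20 or more CG had a peak over them, while those with fewer varied. A peak covered 8 and 12 of the 19 starts in BAP1 knockout and 8 and 14 in wild type. Of all 32817 annotated starts, 12.6% and 33.6% were covered in BAP1 knockout and 5.79% and 25.4% in wild type. At least 1 start was covered at 7 and 8 genes in BAP1 knockout and at 7 and 8 in wild type. The starts with 20 or more CG, those of Grb10, Igf2r, Phlda2, Plagl1 and Igf2, were covered in all 4 libraries. The 4 Snrpn starts, with 2 to 7 CG, were covered in none, and neither was the Peg3 start, although its 13 CG are more than the 9 of Dlk1 and the 11 of Ndn, both covered in all 4. The Mest starts with 17 CG were covered in the second library of each genotype alone, as was the Igf2 start with 7. The Igf2 start with 2 CG was covered in the second wild-type library alone. The 19 starts share genes and neighbourhoods, so the relation to CG content is given as a description. Within 1 kb of a start, a peak was found at 8 and 9 of the 10 genes in BAP1 knockout and at 7 and 8 in wild type. Over all genes this was so for 23.5% and 58.3% in BAP1 knockout, and for 11.4% and 50.0% in wild type.

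Over the whole genome, starts with more CG were more often inside a peak. Of all 32817 start windows, those with 20 or more CG were inside a peak in 27.1% and 71.8% of cases in the BAP1 knockout libraries and in 13.2% and 58.5% in the wild-type libraries. Windows with 4 or fewer CG were inside one in 0.776% and 2.73% in BAP1 knockout and in 0.352% and 1.76% in wild type. The run GCATGCG, searched on both strands, was found in 3.57% of all windows. Among the 19 member starts it was present at Ndn and at all 4 Snrpn starts, and at no other. Starts of the same gene are not independent, and whether these starts differ from all windows was not tested. In the windows of Ndn and Snrpn printed above, the match on one strand overlaps the match on the other.

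**Figure D4:**
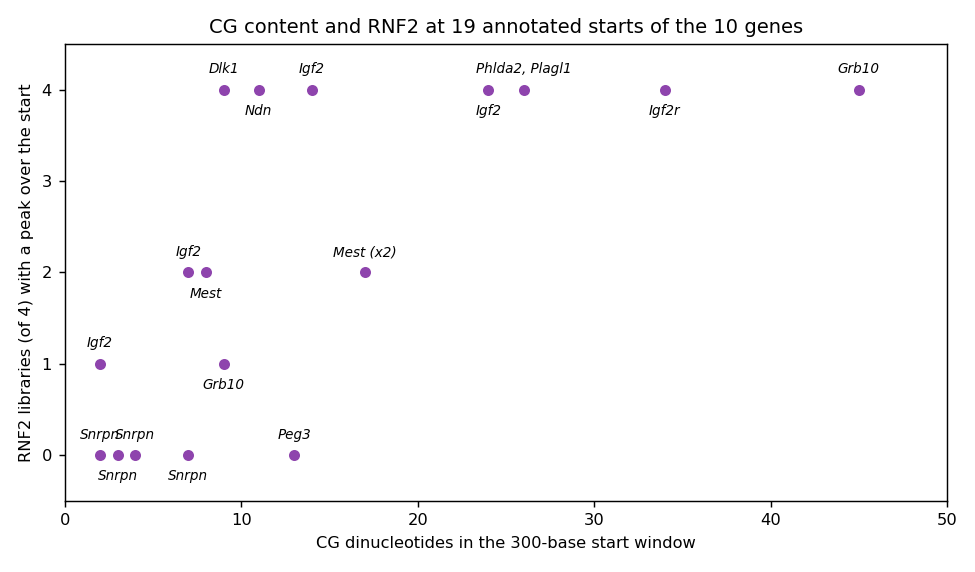
CG dinucleotides in the 300-base window of each of the 19 annotated starts (x axis) against the number of BAP1 knockout and wild-type RNF2 libraries, of 4, with a peak over that start (y axis); each point is a start and "x2" marks a pair of starts at one point. The Peg3 start, with 13 CG, has no peak in any library, while the starts of Dlk1 and Ndn, with 9 and 11, have one in all 4.

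The comparison of BAP1 knockout with wild-type cells asks whether RNF2 changes when the enzyme that reverses its mark is lost. No imprinted gene of the 10 had a peak in both BAP1 knockout libraries and in neither wild-type library, a pattern found at 0.110% of all genes. None had the mirror pattern, which was found at 0% of all genes. Within the first libraries, Mest had a peak in BAP1 knockout and not in wild type, which makes 1 of 10 genes against 15.5% of all genes. Within the second libraries, Peg3 did so, again 1 of 10 against 9.0% of all genes. The mirror case was found at 0 of the 10 genes in either pair, against 0.372% and 1.28% of all genes. Mest had 5.99 kb of RNF2 in the second wild-type library, so its difference in the first pair was not seen again.

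Covered length was greater in BAP1 knockout at each gene with a peak in both first libraries, but at fewer genes in the second. In the first pair it was greater at 7 of 7 genes, against 93.8% of all genes with a peak in both libraries. In the second pair it was greater at 3 of 9, against 86.1% of all such genes. The 3 genes were Igf2r, Phlda2 and Snrpn. Igf2, Grb10, Dlk1, Mest and Plagl1 had a shorter covered length in the second BAP1 knockout library than in the second wild-type library, and Ndn differed by 2 bp.

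Among the 7 genes with a peak in all 4 libraries, Igf2r and Phlda2 had more covered length in BAP1 knockout in both pairs, which makes 2 of 7, against 70.6% of the 3082 genes with a peak in all 4. In the second pair alone it was also 2 of 7, against 73.3%. At Phlda2 the ratio of BAP1 knockout to wild type was 2.38 and 1.56, and at Igf2r it was 2.49 and 1.12. Over those of the 10 genes with a peak in both libraries of a pair, the median ratio was 1.64 in the first pair (7 genes) and 0.988 in the second (9 genes). Over all genes it was 1.71 in the first pair (3082 genes) and 1.51 in the second (12534 genes). The values of the 10 genes were thus close to those of all genes in the first pair and lower in the second. The sets of the second pair are unlike, since 3082 of its 12534 genes had a peak in all 4 libraries, against 7 of the 9. A second-pair ratio over those 3082 genes alone was not computed. Whether the 10 genes differ from other genes was not tested.

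In total over the 10 windows, the length under RNF2 peaks was 27.3 and 49.1 kb in BAP1 knockout, 0 kb in RNF2 knockout, and 16.3 and 52.2 kb in wild type. Within a replicate number, BAP1 knockout minus wild type was 11 kb in the first pair and −3.1 kb in the second. The genotypes overlapped, since both BAP1 knockout values lay between the wild-type values. The means were 38.2 ± 15.5 kb in BAP1 knockout and 34.3 ± 25.4 kb in wild type (SD, n = 2 each), a difference of 3.96 kb. An exact two-sided permutation test over the 4 libraries gave p = 1, where the smallest value that 2 against 2 libraries allow is 0.333. The difference turned negative, to −0.28 kb, with lists of equal length, to −6.98 kb without the second BAP1 knockout library and to −14 kb without the first wild-type library. It was 14.9 kb without the first BAP1 knockout library and 21.9 kb without the second wild-type library.

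**Figure D5:**
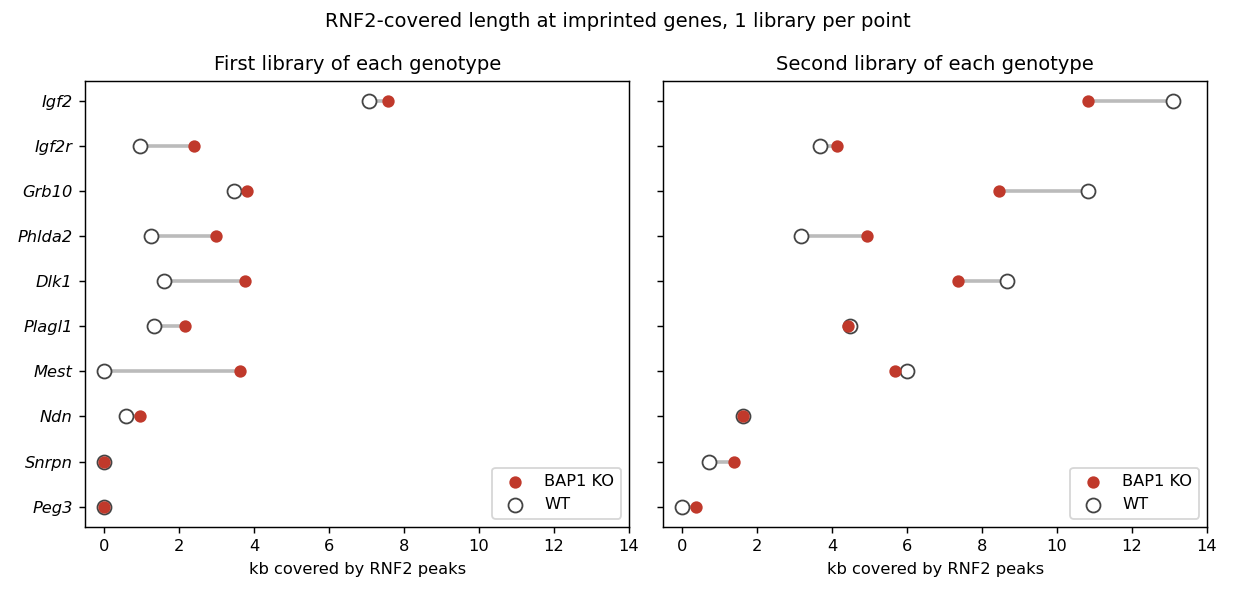
Length covered by RNF2 peaks (kb) in the window of each of the 10 genes in BAP1 knockout (filled) and wild-type (open) cells, for the first library of each genotype (left) and the second (right); each point is 1 library. Filled points lie to the right of open ones at 8 genes on the left, while on the right Igf2, Grb10, Dlk1, Mest and Plagl1 lie the other way.

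BAP1 was listed at 3 of the 10 genes in C91A cells and at 0 in BAP1 knockout cells, against 5.08% and 0.156% of all genes. Igf2 carried 4 of the 6 peaks, of 279, 91, 491 and 413 bp, which covered 1.27 kb in all. Their fold enrichments were 3.77, 2.87, 4.29 and 3.16, and their −log10 q values were 4.29, 2, 5.65 and 3.26. The highest of them, at chr7:142660637-142661127, contained the summits of all 4 RNF2 domains there. Grb10 had 1 peak of 67 bp over its upstream promoter, with a fold enrichment of 3.14, and Snrpn had 1 of 82 bp far from any start, with 3.99. At a −log10 q of at least 5, Igf2 alone of the 10 genes kept a BAP1 peak.

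The BAP1 peaks at Igf2 and Grb10, 5 of the 6, overlapped RNF2 peaks in each of the 4 RNF2 libraries. Of all 2395 BAP1 peaks in C91A cells, 77.1% did so, and the 6 peaks are too few to be read against that share. The peak in Snrpn was 165 bp from an RNF2 peak in the second BAP1 knockout library and 235260 bp from one in the second wild-type library. All 3 genes had an RNF2 peak in the second wild-type library as well as a BAP1 peak, which was so for 4.44% of all genes and for 87.3% of the 1106 genes with a BAP1 peak. No BAP1 peak contained any of the 19 annotated starts, although 2 of the 10 genes had one within 1 kb of a start, against 3.91% of all genes. The C91A library held 415 M tags and the BAP1 knockout library 32.5 M, and the part of this depth in the counts was not tested. With 1 library each, no test of the genotypes was made.

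Other imprinted genes from a textbook list gave lower shares than the 10 genes in each BAP1 knockout and wild-type library, a difference that was not tested. The list also holds neighbours in imprinted domains, and these are counted here as other imprinted genes. Of 72 such genes in the annotation, a peak was found at 29 and 55 in the BAP1 knockout libraries, 0 in RNF2 knockout, and 23 and 54 in wild type. These are 40.3% and 76.4% in BAP1 knockout and 31.9% and 75% in wild type. All 4 libraries had a peak at 23 of the 72. Gains and losses across the 4 libraries were 0 here too, against 0.110% and 0% of all genes, so a count of 0 says little. Within the first libraries, 6 of the 72 had a peak in BAP1 knockout alone (Ddc, Asb4, Nap1l5, Herc3, Mkrn3 and Slc38a4), and 0 in wild type alone. Within the second libraries, 3 had a peak in BAP1 knockout alone (Dhcr7, Usp29 and Gpr1). Another 2 had one in wild type alone (Ube3a and Peg13). All-gene shares for each pair are given above. Igf2os, Airn, Slc22a18 and Usp29 shared a peak with one of the 10 genes. Without these 4, the genes with a peak numbered 26 and 51 of 68 in BAP1 knockout and 20 and 51 in wild type.

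Among the 23 other imprinted genes with a peak in all 4 libraries, 6 are named by the lower of the fold enrichments in the 2 wild-type lists, a rule for naming and not a ranking of binding. The first in that order were Rasgrf1, which encodes a Ras exchange factor, and Gnas, which encodes the stimulatory G protein alpha subunit. The highest Rasgrf1 peak had fold enrichments of 23.0 and 23.8 in BAP1 knockout and 13.7 and 22.4 in wild type. At Gnas it was 14.4 and 23.7 in BAP1 knockout and 13.2 and 18.5 in wild type. Begain, Kcnk9, Igf2os and Zdbf2 followed, with lower wild-type values of 12.0, 12.0, 11.1 and 10.9. The longest covered length among those named was at Zdbf2, with 19 and 31.9 kb in BAP1 knockout and 15.7 and 33.8 kb in wild type.

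BAP1 peaks were listed at 7 of the 72 genes (9.72%) in C91A cells and at 0 in BAP1 knockout cells. Over all protein-coding genes the shares were 5.08% and 0.156%. Without the 4 genes that shared a peak with one of the 10, the C91A count was 6 of 68. The 7 were Igf2os, Dio3, Begain, Sfmbt2, Zdbf2, Rasgrf1 and Kcnk9, and all had an RNF2 peak in all 4 RNF2 libraries. Of all BAP1 peaks, 77.1% overlapped an RNF2 peak in each of the 4, a share of peaks and not of genes. Rasgrf1 had 5 BAP1 peaks, Igf2os 4 (those of Igf2), Dio3 and Zdbf2 3 each, Sfmbt2 and Kcnk9 2 each, and Begain 1. Dio3 encodes a deiodinase that inactivates thyroid hormone.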

How the data were processed

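The submitters' processing notes name GSNAP, in a version that the sources used here do not give, and the build GRCm38 (mm10) for the 50 bp reads. Per the file headers, MACS2 had listed peaks of each ChIP library over its input with a q-value cutoff of 0.05. The headers give version 2.1.1.20160309 for the RNF2 knockout and both later-numbered RNF2 libraries, and version 2.1.0.20150420 for all others. Fragment lengths also differed, at 323 and 100 bp in BAP1 knockout, 100 bp in RNF2 knockout, 297 and 100 bp in wild type, and 50 and 147 bp in the C91A and BAP1 knockout libraries of BAP1 ChIP. Because depth and calling both differ between replicate numbers, genotypes were set side by side within a number. The deposited lists give for each peak its position, pileup signal (not compared between libraries), −log10 of the p-value and q-value, and fold enrichment, a ratio over local background; all are the authors' values.

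Genes and start windows came from RefSeq tables of GRCm38.p6, the build of the lists. All 10 genes matched by symbol and have start windows; 4287 of the protein-coding genes have none, and for these both gene ends stood in. Peaks were cut to each gene's span plus 5 kb and merged, using Python 3.11.15 with pandas 2.3.3 and numpy 2.4.6; the counting was tested on simulated peaks. A gene was called gained with a peak in both BAP1 knockout libraries and neither wild-type one, and lost for the opposite pattern. The summed covered length was compared by an exact two-sided permutation test. Named genes are all 10, plus, of the 72 other imprinted genes found among 73 listed, the 6 highest in all 4 RNF2 libraries by the lower wild-type fold enrichment, those with a BAP1 peak, and 5 noncoding RNA genes. The 10 genes, the lists and the tests were chosen with earlier results of these data known. Alternatives were windows of 1 and 10 kb, −log10 q of at least 5 and 10, summits in place of overlap, start windows of 1 kb, lists of equal length, leaving out each library and, added after seeing the data, a permutation within replicate numbers.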

Additional observations from a re-analysis of the deposited data

How the results depend on the processing

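Of the recomputed values, 160 stayed (counts within 1.5 times, and the covered-length difference in direction only, whatever its size), 18 counts moved further, and 3 values reversed. The 3 reversals were all of the difference in summed covered length (BAP1 knockout minus wild type, 3.96 kb), which was −0.28 kb with lists of equal length and from −14 to 21.9 kb when a library was left out (the negative values being −6.98 and −14 kb), with exact permutation p of 0.667 to 1; it was 1.35 kb within 1 kb of starts. At −log10 q of at least 5, C91A cells had a BAP1 peak at 1 of the 10 genes (3 before) and at 3 of the other imprinted genes (7 before), and at 10 or more at 0 and 0. At 10 or more, 3 genes instead of 1 were gained in the first pair and 0 instead of 1 in the second, where lists of equal length also gave 0. At 10 or more, the other imprinted genes with an RNF2 peak numbered 15 and 33 in the wild-type libraries (23 and 54 before). With lists of equal length they numbered 23 in the second BAP1 knockout library (55 before) and 24 in the second wild-type library, and 1 of them was gained across libraries under each of these alternatives (0 before). Leaving out a library gave 0 to 1 gained among the 10 genes, and 0 to 6 gained (6 without the second wild-type library) and 0 to 2 lost (2 without the first) among the others. The cause of these changes was not tested, beyond fewer peaks or libraries entering. Summits in place of overlap were not run for covered length, which a summit does not give. The labels do not say that a replicate number marks a shared culture or day. With the replicate number as a block, an alternative chosen after seeing the data, the exact permutation of the covered-length difference (3.96 kb) exchanged genotypes within a number only and gave p = 1, where the smallest value that 2 pairs allow is 0.5. A peak that a list lacks may lie under the threshold at that depth.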

Other observations

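Of the stretches next to the 10 genes, several held few or no peaks, and into others an RNF2 peak reached from a flanking gene. Between Dlk1 and Meg3, a stretch of 77.7 kb that contains the germline control region of the domain, no library listed a peak, and the nearest peak to the first Meg3 start was 80.7 and 71.8 kb away in BAP1 knockout and 86.9 and 72.4 kb away in wild type. The 72.6 kb between Igf2 and H19 held 0 and 2 RNF2 peaks in BAP1 knockout (0.372 kb in the second) and 0 and 1 in wild type (0.26 kb in the second). H19 itself, a maternally expressed noncoding RNA, had 0 and 0.295 kb in BAP1 knockout and 0 and 0.155 kb in wild type. The 208 kb from Mest to Klf14 held 0 peaks in any library. Into the 27.1 kb between Ndn and Magel2, 1 RNF2 peak reached from Magel2 in each BAP1 knockout and wild-type library. It covered 0.257 and 0.607 kb of the stretch in BAP1 knockout and 0.309 and 0.524 kb in wild type. Its fold enrichments were 5.81 and 14.5 in BAP1 knockout and 3.09 and 11.8 in wild type. The 10.4 kb between Phlda2 and Nap1l4 held 1 and 4 RNF2 peaks in BAP1 knockout and 0 and 2 in wild type. Except in the first wild-type library, these counts include the main Phlda2 peak, which ran past the edge of the gene. In the first BAP1 knockout library that peak was the only one, over 0.637 kb of the stretch. How often stretches of such lengths hold no peak over the genome was not tested.

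A pair of noncoding RNAs that silence their neighbours on the paternal copy differed. Airn had RNF2 at its start in the second library of each genotype, whereas Kcnq1ot1 had no peak in its window in any library, and its start was 141 and 78.8 kb from the nearest RNF2 peak in BAP1 knockout and 148 and 79.1 kb in wild type. Meg3 had none either, and Peg13 had 0.117 kb in the second wild-type library alone. In the Kcnq1ot1 domain, the 12.7 kb between Cdkn1c, which encodes a cell-cycle inhibitor, and Slc22a18 were covered over 2.84 and 5.74 kb in BAP1 knockout and 1.53 and 6.02 kb in wild type. The highest fold enrichments there were 13.4 and 22.1 in BAP1 knockout and 8.23 and 21.2 in wild type. The window of Cdkn1c had the same highest values, so this length is not apart from RNF2 at Cdkn1c.

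The farthest peak counted in a 5 kb flank lay 3.92 kb from its gene, at Dlk1 in the second wild-type library, and the nearest one not counted lay 12.4 kb from Ndn in the second BAP1 knockout library, with a fold enrichment of 3.21.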
